A study of Arabidopsis thaliana with 72 samples.

Results

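SWEET2 (AT3G14770) and SWEET16 (AT3G16690) are 2 Arabidopsis thaliana genes for sugar transporters of the vacuole membrane, the tonoplast. Their transcript levels were followed in shoots and roots of 6 lines grown on low or sufficient nitrate. Each gene was represented by the probe sets that the table of probe sets and genes pairs with it alone. That was 1 probe set for SWEET2 (256548_at) and 1 for SWEET16 (258421_at), among 13513 probe sets with exactly 1 gene and 22746 in all, and neither gene lies on a probe set shared with another gene. Deposited levels are log2 values of normalised array signal. SWEET2 ranged from 4.17 to 9.61 over the 72 arrays and SWEET16 from 3.81 to 9.07. Neither came within 0.1 of the table's lowest value of 2.11. No detection call was made, so the lowest values of both genes may still be background.

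SWEET proteins let sugars pass across a membrane down their concentration gradient, in either direction, without proton coupling. Most members of the family sit in the plasma membrane and release sugar from cells, whereas SWEET2, SWEET16 and SWEET17 sit in the tonoplast and connect the vacuolar sugar store with the cytosol. SWEET2 carries glucose and is known from roots, where it limits the loss of sugar to the rhizosphere and the growth of a root-infecting Pythium. SWEET16 carries glucose, fructose and sucrose and is known from studies of leaf sugar content, germination and freezing tolerance. SWEET17 carries fructose. Loading of the vacuole against a gradient is done by other proteins, among them the proton-coupled carriers TMT1 and TMT2.

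The 2 accessions among the lines were El-0 and Fei-0, and the rest were recombinant inbred lines, namely KB006 (a cross of Kondara and Br-0), NG064 and NG087 (both from Nok-3 and Ga-0) and SG063 (from Sorbo and Gy-0); each recombinant line is a single inbred genotype from its cross. They carry natural alleles, and no transgene is named in the labels. All plants were 21 days old and stood on vertical agar plates with 1% sucrose, under 16 h of light and 8 h of dark. The sugar was supplied to every group. Sufficient nitrate was 9 mM, given as 2 mM Ca(NO3)2 plus 5 mM KNO3, and low nitrate was 0.4 mM, from 0.2 mM Ca(NO3)2, with 5 mM KCl added, so the media also differed in potassium salt, calcium and chloride. Each of the 24 groups had 3 replicates, labelled biological, and 30 plants taken from 3 plates were pooled for each. With the 6 seeds that the growth description places on a dish, 3 plates would not hold 30 plants, so the pool size is uncertain.

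The labels of 4 arrays did not match their values. When each array was set against the mean of every organ and nitrate condition, leaving itself out, 68 of 72 arrays correlated best with their own label (r from 0.957 to 0.993). The exceptions were the 4 arrays of Fei-0 replicate 3. Among these, the shoot array with the low-nitrate label resembled sufficient-nitrate shoots most, and the shoot array with the sufficient-nitrate label resembled low-nitrate roots. The root array with the low-nitrate label resembled sufficient-nitrate roots, and the root array with the sufficient-nitrate label resembled low-nitrate shoots. Samples were kept as labelled, and the tests of SWEET2 and SWEET16 are given with and without these 4 arrays. Values of other genes are as labelled unless stated, and each listed pathway gene whose call changed without the 4 arrays is given both ways. On the remaining arrays the 4 shoot markers LHCB4.2, PRK, RCA and SBPASE averaged 12.3 to 13.9 in shoots and 3.48 to 8.73 in roots. The 2 root markers that could be measured of 6 listed, EXPA7 and PYK10, averaged 6.04 to 7.94 in shoots and 9.99 to 11.4 in roots. RNA came from whole organs, in which fewer cells of a type and less RNA per cell cannot be told apart.

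SWEET2 was lower in low-nitrate shoots. El-0 shoots had 9.61, 7.86 and 8.46 at sufficient nitrate and 7.25, 6.05 and 4.27 at low nitrate. In KB006 the levels were 9.06, 8.30 and 8.17 at sufficient and 5.23, 4.58 and 5.72 at low nitrate. NG064 shoots gave 7.53, 7.72 and 7.01 against 4.17, 4.28 and 4.81. In these 3 lines every low-nitrate array lay under every sufficient-nitrate array. The same held for NG087, with 7.14, 7.38 and 7.70 at sufficient and 5.23, 4.28 and 5.82 at low nitrate. It held as well for SG063, with 8.32, 8.51 and 8.09 against 5.84, 4.83 and 5.95. For both genes and organs, the share of all probe sets separated in this way is not given, so such separation is description only. Fei-0 shoots differed among themselves. They had 7.95, 7.89 and 7.10 at sufficient and 7.67, 4.81 and 8.46 at low nitrate, where the last value of each set is from an array with a mismatched label. The groups of Fei-0 overlapped as labelled, and no longer did without those arrays, although the first low-nitrate array was only slightly under its sufficient-nitrate counterparts.

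SWEET16 was lower in low-nitrate shoots too. The levels in El-0 shoots were 6.20, 7.38 and 6.62 at sufficient and 4.75, 5.55 and 5.64 at low nitrate. KB006 shoots had 6.96, 6.96 and 6.48 against 4.71, 5.37 and 4.64. By group mean, NG064 shoots were the highest of the shoots at both supplies. Their levels were 8.53, 8.43 and 8.14 at sufficient and 5.79, 5.78 and 6.13 at low nitrate. The groups did not overlap in these lines. NG087 shoots had 7.74, 8.01 and 7.61 against 5.15, 5.82 and 5.29, and SG063 shoots 6.68, 7.14 and 7.15 against 5.29, 4.83 and 3.81, again without overlap. Fei-0 shoots had 7.62, 6.77 and 6.63 at sufficient and 5.15, 5.16 and 7.28 at low nitrate. There the overlap came from the last low-nitrate array, whose label did not match its values.

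In roots, SWEET2 differed less between the supplies. El-0 roots had 7.63, 7.53 and 7.93 at sufficient and 7.92, 7.68 and 6.37 at low nitrate. NG087 roots had 8.31, 7.92 and 8.09 against 7.19, 8.32 and 7.25. The groups overlapped in both lines. KB006 roots had 7.65, 6.58 and 7.11 at sufficient and 6.21, 6.25 and 5.67 at low nitrate. NG064 roots had 8.18, 8.49 and 8.85 against 6.97, 7.67 and 7.17. SG063 roots had 7.15, 7.37 and 6.85 against 5.94, 6.32 and 5.85. The low-nitrate arrays of these 3 lines were all under their sufficient-nitrate arrays. Fei-0 roots had 7.73, 7.35 and 5.32 at sufficient and 7.68, 7.63 and 7.53 at low nitrate, and apart from the mismatched arrays of replicate 3 the supplies could not be separated.

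SWEET16 was high in sufficient-nitrate roots and lower in low-nitrate roots of 5 lines. El-0 roots had 7.79, 7.94 and 8.05 against 6.93, 6.78 and 5.78. KB006 roots had 8.53, 8.50 and 8.57 at sufficient nitrate, a narrow spread, and 6.40, 6.80 and 5.90 at low nitrate. NG064 roots had 8.50, 8.57 and 9.07 against 6.29, 7.18 and 7.16. None of these groups overlapped. NG087 roots had 7.91, 8.10 and 7.92 against 6.18, 6.96 and 6.49, and SG063 roots 8.78, 8.98 and 8.72 against 6.96, 6.97 and 6.48. Both lines were separated in the same way. Fei-0 roots had 8.48, 8.15 and 5.95 at sufficient and 7.51, 7.43 and 8.57 at low nitrate. The arrays of replicate 3 alone turned the order in Fei-0, and replicates 1 and 2 of each supply were apart.

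**Figure D1:**
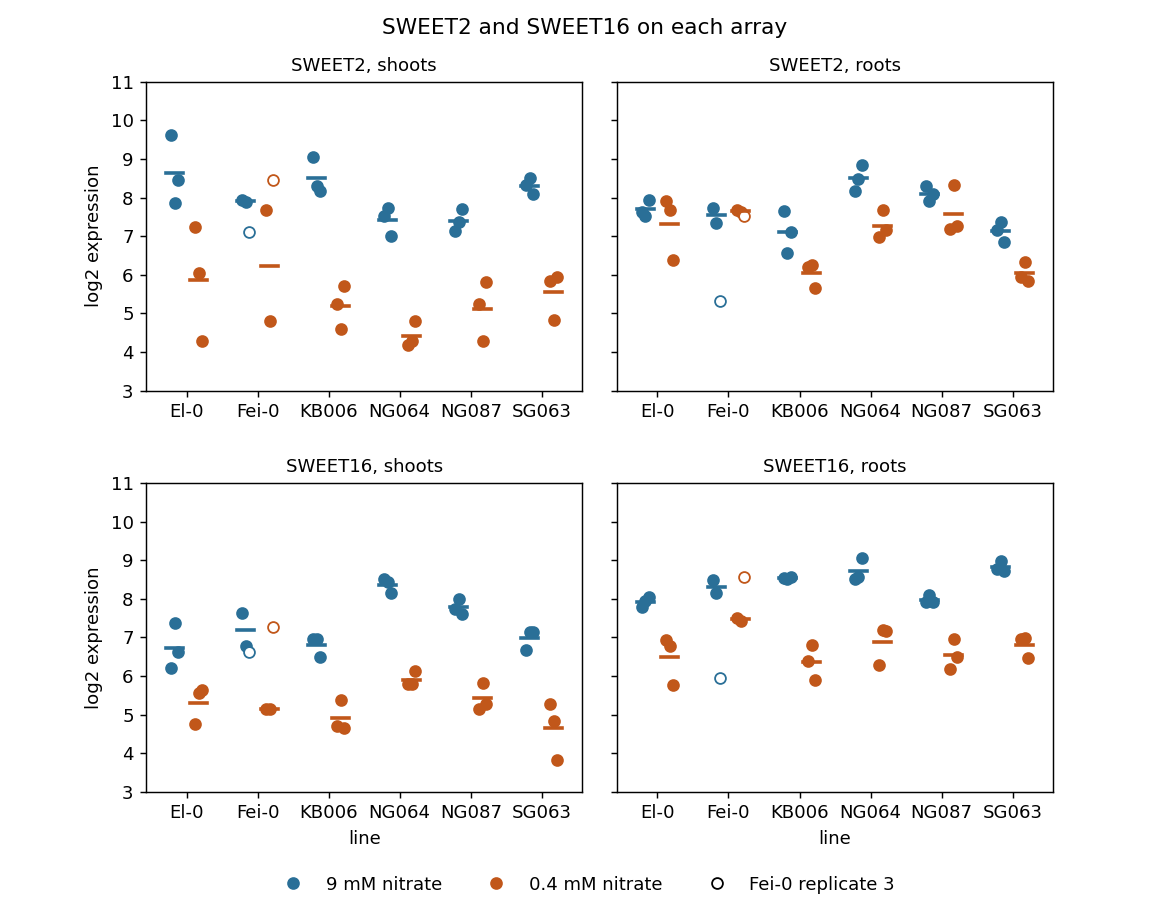
Log2 expression of SWEET2 (top) and SWEET16 (bottom) on each of the 72 arrays, in shoots (left) and roots (right) of 6 lines. Blue points are 9 mM and orange points 0.4 mM nitrate, open points are the Fei-0 replicate 3 arrays, and bars are group means without those arrays; orange points lie lowest in the shoots, down to 4.17 for SWEET2 and 3.81 for SWEET16.

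Averaged over the 6 lines with equal weight, both genes fell at low nitrate in both organs. SWEET2 fell 5.56-fold in shoots, a log2 change of −2.48 ± 0.28 (moderated SE, 18 arrays per supply; limma, Benjamini-Hochberg adjusted p = 1.80e-07), and the change without the 4 mismatched arrays was −2.64 ± 0.27 (adjusted p = 1.87e-08). In roots SWEET2 fell 1.50-fold, by −0.58 ± 0.18 on the log2 scale (adjusted p = 0.0128), and by −0.70 ± 0.15 without those arrays (adjusted p = 3.53e-04). The root fall of SWEET2 did not pass the test when replicate 1 was left out (−0.48 ± 0.24, adjusted p = 0.196), nor in a fit that shared its error over all 72 arrays (adjusted p = 0.0582). SWEET16 fell 3.83-fold in shoots, by −1.94 ± 0.18 (adjusted p = 8.85e-09), and by −2.09 ± 0.14 without the mismatched arrays (adjusted p = 2.24e-11). Its fall in roots was 2.70-fold, by −1.43 ± 0.18 (adjusted p = 4.43e-07), and by −1.62 ± 0.12 without those arrays (adjusted p = 5.46e-11).

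A fall was common among all probe sets. At an adjusted p below 0.05, 17.3% of all probe sets fell in shoots and 15.5% in roots, or 21.9% and 19.1% without the mismatched arrays. Among the 22746 probe sets, 0.492% had a more negative shoot change than SWEET2 and 0.853% one more negative than SWEET16. In roots these shares were 7.87% for SWEET2 and 2.08% for SWEET16. The median change of all probe sets was 0 to 2 decimals in both organs. Array medians differed between the shoot conditions without the mismatched arrays, averaging 5.98 at low and 5.80 at sufficient nitrate, and centring each array on its median made the shoot falls larger, at −2.65 for SWEET2 and −2.11 for SWEET16. The 4 shoot markers also moved with the supply. Without the mismatched arrays their mean level lay at 12.3 to 13.3 in low-nitrate and 13.5 to 13.9 in sufficient-nitrate shoots, and all 4 fell in low-nitrate roots, from 6.82 to 8.73 down to 3.48 to 6.09. The root markers EXPA7 and PYK10 fell in low-nitrate roots as well without those arrays, by −0.51 ± 0.15 (adjusted p = 0.00699) and −0.53 ± 0.06 (adjusted p = 2.79e-08), but did not pass as labelled (−0.24 and −0.36). The part of these markers in the responses of SWEET2 and SWEET16 was not tested.

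Line by line, SWEET2 fell in shoots of 5 of 6 lines and in roots of 0 of 6 by limma's adjusted p. In roots 3 changes had an unadjusted p below 0.05. The share of all probe sets under that threshold is not given, so this count is description only. The shoot changes were −2.79 in El-0, −3.33 in KB006, −3.00 in NG064, −2.30 in NG087 and −2.77 in SG063, each with an SE of 0.69 and adjusted p from 0.00337 to 0.0350. Fei-0 shoots gave −0.67 ± 0.69 (adjusted p = 0.882), and −1.68 ± 0.79 without the mismatched arrays (adjusted p = 0.17). In roots the changes ran from −1.24 in NG064 to 0.81 in Fei-0. Leaving out the mismatched arrays made the error smaller, and roots of 3 lines passed, with −1.07 in KB006 (adjusted p = 0.0223), −1.24 in NG064 (adjusted p = 0.00959) and −1.09 in SG063 (adjusted p = 0.0243), while El-0 (−0.37), NG087 (−0.52) and Fei-0 (0.12) did not pass.

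SWEET16 fell in shoots of 5 of 6 lines and in roots of 4 of 6. The shoot changes were −1.42 in El-0, −1.89 in KB006, −2.46 in NG064, −2.37 in NG087 and −2.34 in SG063, each with an SE of 0.44 and adjusted p from 9.36e-04 to 0.0334. Fei-0 shoots gave −1.14 ± 0.44 (adjusted p = 0.37) and passed without the mismatched arrays, at −2.04 ± 0.41 (adjusted p = 0.00143). Root changes were −2.17 in KB006, −1.84 in NG064, −1.44 in NG087 and −2.02 in SG063, each with an SE of 0.44 and adjusted p from 9.03e-04 to 0.0347. El-0 roots had −1.43 ± 0.44 (adjusted p = 0.0526), and the same change passed without the mismatched arrays, with an SE of 0.27 (adjusted p = 6.81e-04). Fei-0 roots had 0.31 ± 0.44 as labelled (adjusted p = 0.829) and −0.84 ± 0.34 without those arrays (adjusted p = 0.127).

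The share of all probe sets that fell in shoots was 4.78% in El-0, 0.0308% in Fei-0, 4.35% in KB006, 4.81% in NG064, 3.76% in NG087 and 4.71% in SG063. In roots it was 2.31% in El-0, 3.56% in Fei-0, 7.49% in KB006, 6.8% in NG064, 4.45% in NG087 and 5.89% in SG063. The share without them was 7.25% in Fei-0 shoots and, in roots, 6.93% in El-0, 11.7% in KB006, 11.6% in NG064 and 10.5% in SG063. Few probe sets thus fell in Fei-0 shoots as labelled, where neither gene passed.

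The lines' responses were not shown to differ. The line by nitrate interaction had an adjusted p of 0.735 for SWEET2 and 0.815 for SWEET16 in shoots, and of 0.26 and 0.119 in roots; 0.8% of all probe sets passed this test in shoots and 2.2% in roots. Without the mismatched arrays the values were 0.993 and 0.871 in shoots and 0.387 and 0.244 in roots, with 1.11% and 6.24% of all probe sets passing. The spread of the 6 line responses without these arrays ran from −1.68 to −3.33 for SWEET2 in shoots, a range of 1.65, and from 0.12 to −1.24 in roots. For SWEET16 it ran from −1.42 to −2.46 in shoots and from −0.84 to −2.17 in roots. Fei-0 stood apart in the root response of SWEET16 as labelled. Its response was above the mean of the other lines by 2.09 ± 0.48 as labelled (adjusted p = 0.0214; 3.53% of all probe sets passed), and by 0.94 ± 0.36 without the mismatched arrays (adjusted p = 0.197; 0.985% passed). Leaving out the first Fei-0 root array at sufficient nitrate alone gave an interaction of SWEET16 with an adjusted p of 0.0241. That fit dropped an array that matched its label. It kept the mismatched replicate 3 array of the same group, which resembled low-nitrate shoots, so no line difference is read from it.

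**Figure D2:**
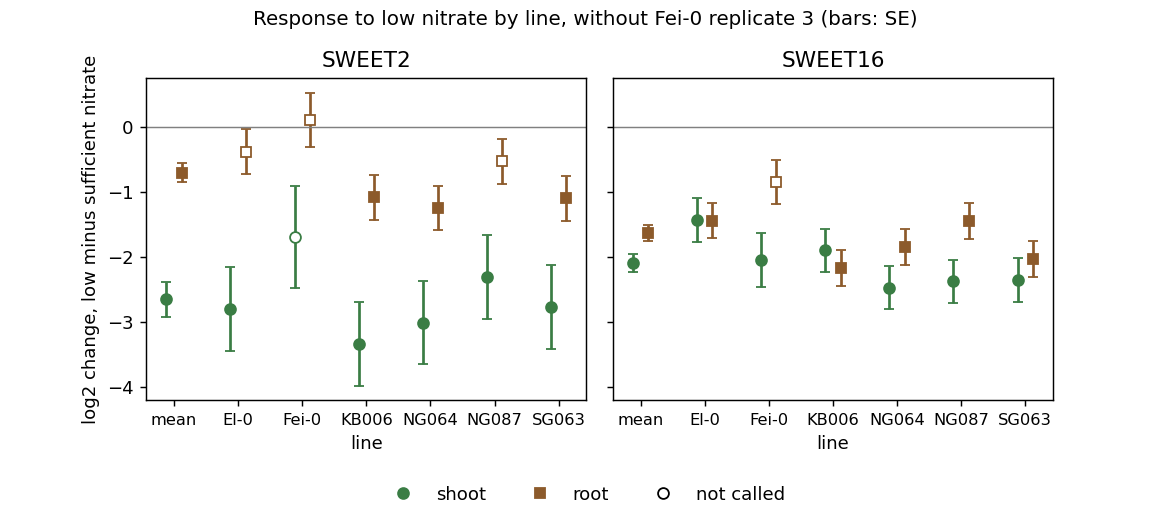
Log2 change from sufficient to low nitrate for SWEET2 (left) and SWEET16 (right), as the mean of 6 lines and in each line, without Fei-0 replicate 3; circles are shoots, squares are roots, bars are moderated SE and open symbols did not pass an adjusted p of 0.05. Shoot and root symbols of SWEET2 are apart in every line, whereas those of SWEET16 lie at like heights in El-0, KB006 and SG063. The difference between the organs' responses of SWEET2 passed in 2 of 6 lines, for which no share of all probe sets is given.

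The organs differed for SWEET2. Its fall was larger in shoots than in roots by −1.89 ± 0.34 on the log2 scale (95% interval −2.57 to −1.21; adjusted p = 1.42e-05), and by −1.95 ± 0.31 without the mismatched arrays (adjusted p = 1.12e-06). The sign was the same in 6 of 6 lines, at −1.48 to −2.41 as labelled. Taken singly, the difference passed in 0 of 6 lines, and in 2 of 6 without those arrays. For SWEET16 the difference was −0.51 ± 0.25 (95% interval −1.02 to 0.0022; adjusted p = 0.122), which did not pass, and −0.46 ± 0.18 without those arrays (95% interval −0.84 to −0.09; adjusted p = 0.0372), which did. Its sign was negative in 4 of 6 lines in both cases. Averaged over the 6 lines, the comparison of responses passed for 33.9% of all probe sets, and for 43.5% without the mismatched arrays. Shares for single lines are not given, so the counts of lines are description only.

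Levels were then compared between the organs at each supply. At sufficient nitrate SWEET2 in shoots was 0.43 ± 0.24 above roots (95% interval −0.05 to 0.91; adjusted p = 0.113), a difference that did not pass, with or without the mismatched arrays (0.35 ± 0.22, adjusted p = 0.16). The lines went both ways there, from −1.09 in NG064 to 1.39 in KB006, with shoots lower in 2 of 6. At low nitrate SWEET2 was lower in shoots than in roots by −1.47 ± 0.24 (adjusted p = 3.99e-07), and by −0.94 without replicate 2 (adjusted p = 0.00543). Shoots were lower in 6 of 6 lines, of which 3 passed singly. SWEET16 was lower in shoots at both supplies, by −0.97 ± 0.18 at sufficient (adjusted p = 4.34e-06) and −1.48 ± 0.18 at low nitrate (adjusted p = 2.95e-10). The sign held in 6 of 6 lines each time, and 3 lines passed singly at sufficient and 5 at low nitrate. Without the mismatched arrays SWEET2 had −1.60 at low nitrate, and SWEET16 had −1.07 and −1.54 at sufficient and low nitrate, all past the test. Averaged over the lines, shoot and root differed in 64.9% of all probe sets at sufficient and 61.9% at low nitrate (67.3% and 62.6% without the mismatched arrays). Shares for single lines are not given, so the counts of lines that passed are description only.

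Ordered by their means without the mismatched arrays, the 24 groups of SWEET2 ran from 8.64 in El-0 shoots at sufficient nitrate to 4.42 in NG064 shoots at low nitrate. Sufficient-nitrate shoots and roots mixed in the upper ranks, with NG064 roots (8.51) beside KB006 shoots (8.51) and NG087 roots (8.11) between SG063 shoots (8.31) and Fei-0 shoots (7.92). Roots of Fei-0 (7.66) and NG087 (7.59) at low nitrate stood above the sufficient-nitrate shoots of NG064 (7.42) and NG087 (7.41). The low-nitrate shoots took ranks 17 and 20 to 24, and the low-nitrate roots of KB006 and SG063 (6.04 each) lay between them. Of 23 neighbouring pairs in this order, 1 was apart by more than the larger of its SDs, Fei-0 shoots and El-0 roots at sufficient nitrate (7.92 and 7.70). The Fei-0 mean there came from 2 arrays.

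SWEET16 had another order. It ran from 8.83 in SG063 roots at sufficient nitrate to 4.64 in SG063 shoots at low nitrate, so that the same line held both ends. Sufficient-nitrate roots took the first 3 ranks, with NG064 (8.71) and KB006 (8.53) next to SG063, and NG064 shoots at sufficient nitrate came after them (8.36). All 6 low-nitrate shoot groups were in ranks 19 to 24, from NG064 (5.90) to SG063. Of 23 neighbouring pairs, 4 were apart by more than the larger SD, and among them were KB006 roots against NG064 shoots at low nitrate (6.37 and 5.90) and NG064 against NG087 shoots at low nitrate (5.90 and 5.42).

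As labelled, line levels differed in roots for SWEET2 and in shoots for SWEET16. In roots, the mean of both supplies differed among lines for SWEET2 (adjusted p = 0.0015, and 4.88e-05 without the mismatched arrays), where 44.4% and 56% of all probe sets passed. KB006 roots were below the mean of the other lines by −0.83 ± 0.24 (adjusted p = 0.0155; 20.5% of all probe sets passed) and SG063 roots by −0.82 ± 0.24 (adjusted p = 0.0193; 16.8% passed). NG064 roots were above it by 0.75 ± 0.24 (adjusted p = 0.0322; 19% passed). Without the mismatched arrays these 3 differences were −0.91, −0.90 and 0.67, and NG087 roots also passed, at 0.61 ± 0.19 (adjusted p = 0.0222), with 29%, 25.6%, 27.5% and 21.1% of all probe sets passing in KB006, SG063, NG064 and NG087. As labelled, NG087 roots did not pass (adjusted p = 0.0609; 13.7% passed). The lines with high SWEET2 in roots, NG064 and NG087, are from the same cross. Leaving out replicate 2 took the test of line means to an adjusted p of 0.112. In shoots the line means of SWEET2 did not pass (adjusted p = 0.147, and 0.136 without the mismatched arrays), with 25.2% and 35.9% of all probe sets passing.

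For SWEET16 the line means differed in shoots (adjusted p = 0.0101, and 5.74e-04 without the mismatched arrays). NG064 shoots were above the other lines by 0.99 ± 0.24 (adjusted p = 0.0108; 6.63% of all probe sets passed) and by 1.04 ± 0.18 without the mismatched arrays (adjusted p = 4.79e-04; 12.3% passed). The test of line means did not pass without replicate 1 (adjusted p = 0.141) or without replicate 2 (adjusted p = 0.138). In roots the line means of SWEET16 did not pass as labelled (adjusted p = 0.359) and passed without the mismatched arrays (adjusted p = 0.0125). El-0 roots were then −0.43 ± 0.15 from the other lines (adjusted p = 0.0389; 25.6% of all probe sets passed), against −0.39 ± 0.24 as labelled (adjusted p = 0.336; 17% passed). The arrays carry probes of 1 reference sequence, and a sequence difference in a line can change its signal, which was not tested.

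Among low-nitrate shoots without the mismatched arrays, the replicates of SWEET2 had a larger SD than those of SWEET16 in 5 of 6 lines. The exception was SG063, with 0.62 for SWEET2 and 0.76 for SWEET16, and no test of the difference was made. The SD of SWEET2 was highest in the accessions, at 1.50 in El-0 and 2.03 in Fei-0, where El-0 replicates covered 7.25 to 4.27 and the remaining Fei-0 replicates 7.67 and 4.81. SWEET16 was steadier on the same arrays, at 4.75, 5.55 and 5.64 in El-0 and 5.15 and 5.16 in Fei-0. AT3G59350, whose group means were among those most like SWEET2, varied in the same order as SWEET2 there, with 6.87, 4.42 and 3.44 in El-0 and 8.27 and 3.95 in Fei-0. AT4G16563, also among those, did so in Fei-0 (7.45 and 2.43) but not in El-0 (4.54, 5.65 and 3.35). These comparisons were chosen after the values were seen. Deviations of the arrays from their group means correlated between SWEET2 and SWEET16 at r = −0.42 in shoots and 0.79 in roots (34 arrays each, all sharing 1 signal scale and the same pools for both genes). These are descriptions over arrays that share their group means.

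The SWEET family held both rises and falls, as did all probe sets. Of 17 members listed, 16 had a probe set of their own. In shoots 4 rose and 3 fell, with a median of 0.10, and in roots 3 rose and 3 fell, with a median of −0.003. Among all 22746 probe sets, 5381 rose (23.7%) and 3938 fell (17.3%) in shoots. In roots 4815 of them rose (21.2%) and 3516 fell (15.5%). Leaving out the mismatched arrays gave 5 rises in shoots and 4 in roots, and 3 falls in each. Of all probe sets 28.0% then rose and 21.9% fell in shoots, and 23.6% and 19.1% in roots. The family counts thus lie near the shares of all probe sets. SWEET2, SWEET16 and SWEET17 were the 3 falls in both organs. SWEET17 (AT4G15920), also a tonoplast member, changed by −1.10 ± 0.16 in shoots (adjusted p = 4.03e-06) and −0.90 ± 0.12 in roots (adjusted p = 1.56e-06). Both of its changes were negative in 6 of 6 lines as labelled, and passed singly in shoots of 2 and roots of 4. Without the mismatched arrays they passed in 6 of 6 lines in each organ. As labelled, the share of all probe sets that fell in a single line was 0.0308% to 4.81% in shoots. In roots it was 2.31% to 7.49%. Without the mismatched arrays such shares are given for only some lines, so the count there is description only.

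The family members that rose are not among the tonoplast types. SWEET13, a sucrose carrier of the phloem-loading group, rose by 3.97 ± 0.49 in shoots (adjusted p = 5.41e-07) and 2.94 ± 0.28 in roots (adjusted p = 6.09e-09). SWEET14, its close relative, rose by 4.03 ± 0.24 in roots (adjusted p = 4.66e-12) and stood at 0.35 ± 0.31 in shoots (adjusted p = 0.405), where it rose by 0.60 ± 0.22 without the mismatched arrays (adjusted p = 0.0248). SWEET4 rose by 2.01 ± 0.30 in shoots. In roots it had 0.54 ± 0.25 as labelled (adjusted p = 0.101) and rose by 0.77 ± 0.17 without those arrays (adjusted p = 8.10e-04). The glucose carrier SWEET1 rose by 1.09 ± 0.26 in shoots. AtVEX1, also called SWEET5, rose by 0.43 ± 0.09 in shoots from near the lowest value of the table. SAG29, also called SWEET15 and known from senescing leaves, rose by 0.58 ± 0.15 in roots. Several others, SWEET3 and SWEET6 to SWEET9, were at or close to the lowest value on most arrays. With arrays centred on their medians the counts were 4 rises and 8 falls in shoots and 7 rises and 3 falls in roots, because values at the floor of the table then follow the array medians.

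**Figure D3:**
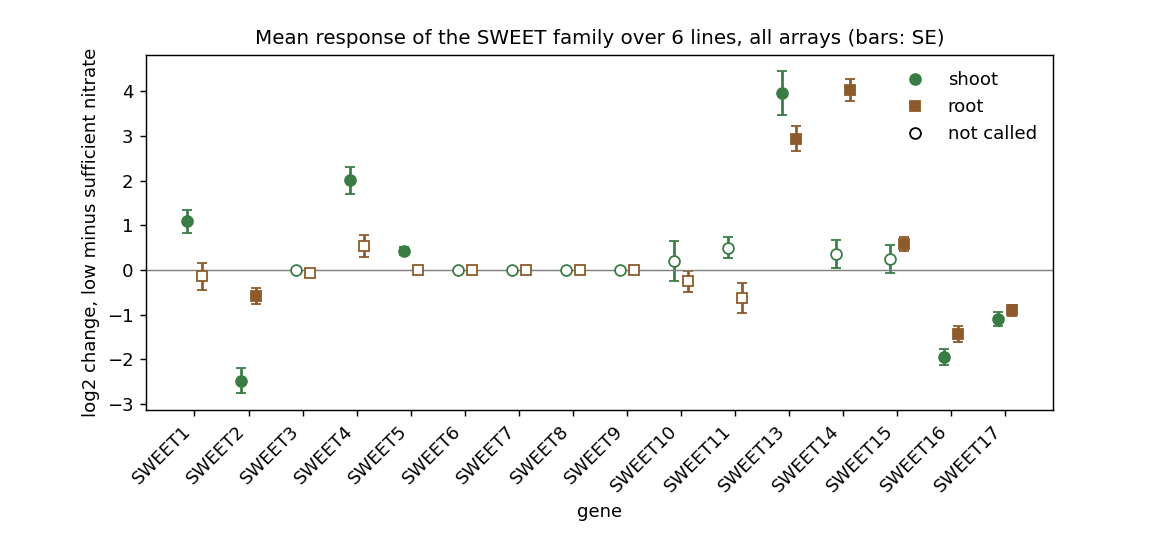
Mean log2 change from sufficient to low nitrate over 6 lines for the 16 measured SWEET genes, in shoots (circles) and roots (squares), all arrays as labelled; bars are moderated SE and open symbols did not pass an adjusted p of 0.05. Only SWEET2, SWEET16 and SWEET17 have filled symbols under 0, and SWEET13 and SWEET14 reach 3.97 and 4.03.

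Other sugar carriers of the tonoplast moved both ways. Of 12 listed, 6 were measured, and 2 rose and 2 fell in each organ, with a median of −0.14 in shoots and −0.07 in roots. Among all probe sets 23.7% rose and 17.3% fell in shoots, and 21.2% rose and 15.5% fell in roots, which is the background for this list and those that follow. TMT1, a proton-coupled importer, changed by −0.54 ± 0.13 in shoots (adjusted p = 0.00153) and −0.52 ± 0.08 in roots (adjusted p = 8.16e-06). TMT2, of the same family, moved the other way, by 1.12 ± 0.19 and 0.48 ± 0.06 (adjusted p = 2.82e-05 and 1.42e-06). SFP2, a sugar-porter family protein, fell by −2.21 ± 0.31 in shoots, and SFP1 of the same family fell by −0.66 ± 0.08 in roots. The listed carrier AT5G17010 rose by 0.55 ± 0.16 in shoots and 0.56 ± 0.11 in roots. The tonoplast proton pumps, which energise such importers, changed little. Of 5 measured of 16, 2 fell in shoots, VHA-A3 (−0.29 ± 0.10) and AT3G58730 (−0.17 ± 0.05), and 1 in roots, VHA-A2 (−0.14 ± 0.05), and the measured changes ran from −0.29 to 0.10 over both organs. AT3G42050 of the same list had 0.08 ± 0.07 in shoots as labelled and rose by 0.14 ± 0.06 without the mismatched arrays (adjusted p = 0.0464).

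Enzymes and carriers that share sugars with the vacuole were thinly covered by probe sets with 1 gene. Of 9 invertases listed, 2 were measured. In shoots cwINV6, listed as a cell wall invertase, rose by 1.52 ± 0.23 and AT1G62660 fell by −0.98 ± 0.34, and in roots they had 0.05 ± 0.11 and −0.30 ± 0.24, which did not pass. Without the mismatched arrays AT1G62660 fell in roots too, by −0.55 ± 0.07 (adjusted p = 3.84e-07). Of 11 hexokinases and fructokinases, 6 were measured. AT2G31390 and AT5G51830 rose in both organs, by 1.38 and 1.37 in shoots and 0.44 and 1.65 in roots. AT1G66430 and AT3G59480 fell in both, by −1.19 and −0.18 in shoots and −0.33 and −2.85 in roots. Shoot means of AT3G59480 without the mismatched arrays, 2.64 at sufficient and 2.45 at low nitrate, were near the lowest value of 2.11. AT1G06020 and AT4G10260 were within 0.1 of that value on all 72 arrays. The 1 measured of 10 sucrose synthases and sucrose phosphate synthases, ATSPS4F, did not pass in either organ as labelled (0.94 ± 0.41 and 0.55 ± 0.39), and rose in roots without the mismatched arrays, by 1.00 ± 0.12 (adjusted p = 3.77e-07). Of 22 plasma membrane hexose and sucrose carriers 4 were measured, and AT5G61520 rose (2.03 ± 0.20) while AT1G34580 fell (−0.24 ± 0.06) in shoots. AT1G34580 was within 0.1 of the lowest value on 52 of 72 arrays, AT5G26250 on 70 and AT3G19940 on 71. Root changes of the 4 lay between −0.06 and 0.01 and did not pass. Without the mismatched arrays AT5G61520 turned from −0.06 to 0.24 ± 0.09 in roots and passed (adjusted p = 0.0372). Of 12 other tonoplast channels and nitrate carriers 3 were measured, and AT1G72130 among them was within 0.1 of the lowest value on all 72 arrays. AT1G22550 fell in both organs (−1.42 ± 0.24 and −0.85 ± 0.12) and AT1G72140 in roots (−2.86 ± 0.32). Root means of AT1G72140 without the mismatched arrays were 5.74 at sufficient and 2.47 at low nitrate, the latter near the lowest value.

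A pair of sugar-responsive genes gave values beside these. AKINBETA1, a subunit of the SnRK1 kinase and the 1 measured gene of 10 listed as repressed by sugar, fell by −2.00 ± 0.27 in shoots (adjusted p = 2.22e-06) and −1.37 ± 0.10 in roots (adjusted p = 1.18e-10). APL3, a subunit of the starch enzyme ADP-glucose pyrophosphorylase and the 1 measured gene of 5 listed as induced by sugar, rose by 2.18 ± 0.29 in shoots (adjusted p = 1.23e-06) and had 0.44 ± 0.27 in roots (adjusted p = 0.232), where it rose by 0.66 ± 0.15 without the mismatched arrays (adjusted p = 7.13e-04). Sugars were not measured, and all groups had the same sucrose in the medium.

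Among the genes compared, SWEET17 was most like SWEET16 by Pearson's r, though not by Spearman's rho. Likeness was measured as Pearson's r between means of the 24 groups, without the mismatched arrays, over 5121 probe sets with 1 gene and an SD of group means of at least 0.5. SWEET17 had r = 0.93 and Spearman's rho = 0.90 with SWEET16. The next were AT1G67910 (r = 0.92, rho = 0.89), AT2G30930 (0.91, 0.87), BGLU16 (0.90, 0.89) and AT2G36320 (0.90, 0.91). SWEET17 was at 7.50 ± 0.67 (SD, n = 17) in low-nitrate and 8.72 ± 0.60 in sufficient-nitrate shoots, and at 8.65 ± 0.20 and 9.70 ± 0.18 in roots. It thus shared with SWEET16 the order of sufficient-nitrate roots highest and low-nitrate shoots lowest (SWEET16: 5.23 ± 0.56 and 7.32 ± 0.69 in shoots, 6.72 ± 0.50 and 8.39 ± 0.39 in roots).

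SWEET2 had weaker likenesses and different ones. AT4G16563 came first (r = 0.84, rho = 0.79), then AT5G44020 (0.84, 0.78), AT1G68670 (0.83, 0.79), AT3G59350 (0.82, 0.72) and AT1G67910 (0.82, 0.68). AT1G67910 was in both sets of 5. AT4G16563 and AT3G59350 fell in shoots, by −3.22 and −2.72 without the mismatched arrays (adjusted p = 6.27e-08 and 1.44e-05), and in roots changed by −0.15 and −0.11 (adjusted p = 0.547 and 0.281). SWEET2 and SWEET16 had r = 0.67 with each other over the 24 groups, 0.72 over the 12 shoot and 0.51 over the 12 root groups. From SWEET2, SWEET16 ranked 66 among the 5121, and from SWEET16, SWEET2 ranked 265. All these r values share the same arrays and are carried largely by the contrasts of organ and supply.

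**Figure D4:**
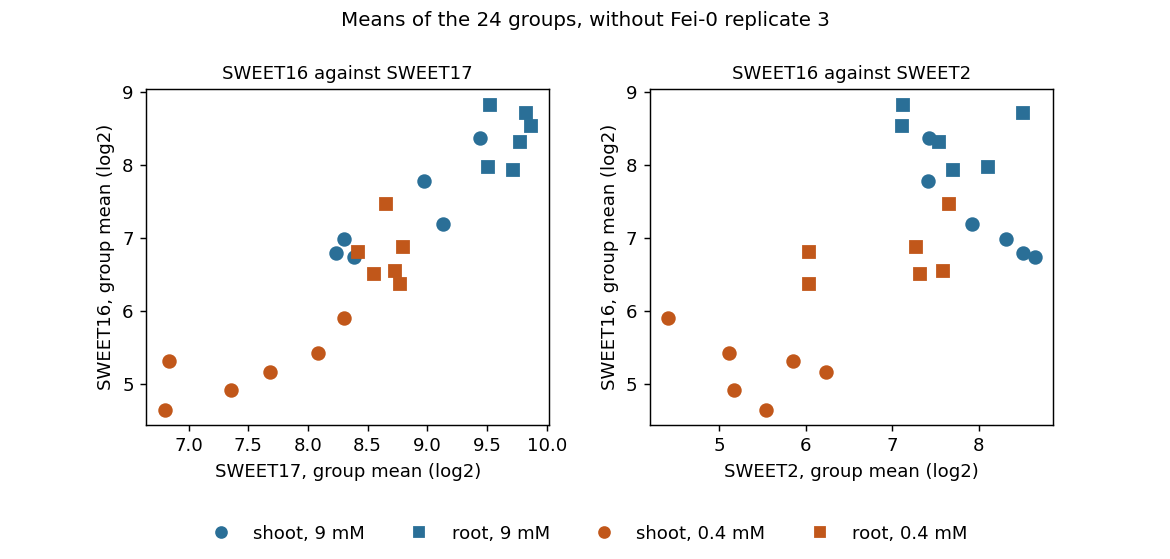
Means of the 24 groups without Fei-0 replicate 3, SWEET16 against SWEET17 (left, r = 0.93) and SWEET16 against SWEET2 (right, r = 0.67); all axes are log2 expression, circles are shoots, squares are roots, and orange marks low nitrate. The left points follow a single band, and on the right they are more dispersed.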

How the data were processed

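The deposited table holds log2 expression values per probe set. GCRMA, affy and limma are listed, without versions, in the submitters' processing notes, and how the authors grouped the arrays for normalisation is not stated there. All 22746 probe sets entered without further normalisation or filter. Names came from the probe-to-gene table and from a gene table of assembly TAIR10.1.

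Organs were fitted apart in limma 3.58.1 under R 4.3.3, with a mean per group over 36 arrays, and were compared in a fit of 72 arrays. Contrasts are low minus sufficient nitrate. Adjusted p-values are Benjamini-Hochberg values over every probe set, with calls below 0.05. The number of arrays limits the precision. The 2 genes and the gene lists were chosen with earlier results of these data known. Named were both genes, up to 3 called rises and 3 falls per list and organ, and the 5 genes most like each by r. Alternatives covered leaving out arrays, replicates or Fei-0, median centring, quantile normalisation, a filter on dim probe sets, a replicate block, trend and robust variance, and a shared fit. The fit was tested on simulated data.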

Additional observations from a re-analysis of the deposited data

Results flagged for a closer look

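The fall of SWEET2 at low nitrate differed between the organs, by −1.89 on the log2 scale (shoot minus root; 95% interval −2.57 to −1.21, limma adjusted p = 1.42e-05), with a negative sign in 6 of 6 lines. It was picked out because the test of the difference itself passed. Without the 4 arrays of Fei-0 replicate 3 the difference was −1.95. Over the fits that left out these arrays or a whole replicate, it ran from −1.39 to −2.25. Taken singly, 0 of 6 lines passed as labelled and 2 of 6 without the 4 arrays. The share of all probe sets passing in single lines is not given.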

How the results depend on the processing

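The mean responses kept their direction under every alternative run, and those of SWEET2 in shoots and of SWEET16 in both organs also kept their call. SWEET2 in roots lost its call without replicate 1 (−0.475; range −0.475 to −0.757 over fits that leave out arrays) and in the fit of all 72 arrays (−0.581). Leaving out any single array kept all 4 calls.

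Over fits that leave out a replicate or single arrays, the adjusted p of the SWEET2 line means ran from 0.00886 to 0.825 in shoots, under 0.05 without El-0 shoot low nitrate replicate 3 and without Fei-0 shoot low nitrate replicate 2, and from 3.04e-05 to 0.112 in roots, where the call was lost without replicate 2. That in shoots was 0.0226 in the fit of all 72 arrays. SWEET2 in shoots exceeded roots at sufficient nitrate by 0.597 with arrays centred on their medians, and by 0.524 with centring and without the 4 mismatched arrays. For SWEET16 the line means ran from 5.74e-04 to 0.141 in shoots, losing the call without replicate 1 or 2, and from 0.00959 to 0.741 in roots, where they passed without the 4 arrays (0.0125), Fei-0 (0.0269) or Fei-0 root sufficient nitrate replicate 3, and without the 4 arrays also when centred (0.00956) or with the replicate block (0.0155). Its root interaction ran from 0.0241 to 0.418. The lowest value came without Fei-0 root sufficient nitrate replicate 1, in a fit that kept the mismatched replicate 3 of that group. The shoot minus root response of SWEET16 ran from −0.425 to −0.599, and passed without replicate 3 (−0.599), without the 4 arrays (−0.465, with or without the replicate block), centred (−0.710) and centred without the 4 arrays (−0.680). The causes of these changes were not tested.

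Replicate numbers were not taken to pair the arrays. Deviations of same-numbered low and sufficient arrays correlated over 0.1 in 16 of 36 pairs (median 0.038), and in all 3 pairs in 4 of 12 sets of line and organ (shoots of KB006, NG087 and SG063, roots of KB006). The replicate block alone changed no call among the tests of SWEET2 and SWEET16 (for example −2.48 and adjusted p = 1.85e-07 for SWEET2 in shoots). That block was shared by all lines, so it could not represent pairs within a line. Same-numbered shoot and root arrays were not compared in this way, and the organ tests took them as independent. The alternatives without the 4 arrays and with centring or the replicate block, and those without single arrays, were chosen after seeing the data. P-values measure the spread between pools of plants, and 3 pools per group limit what a single line can show.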
